A study of Mus musculus with 24 samples.

Results

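The response of 1 clone of *Lkb1*-/-/*Crtc2*-/- mouse embryonic fibroblasts (MEFs), clone A1, to IL-1β was measured by RNA-seq in 6 of the 24 libraries of the study. These libraries were chosen by their labels and comprised 3 libraries of clone A1 treated with IL-1β and 3 untreated libraries of the same clone. All 24 libraries came from 3T3 MEFs, an immortalized line of mouse fibroblasts. The other genotypes were wild-type MEFs, *Lkb1*-/- MEFs and another double knockout clone, A2, each with 3 untreated and 3 IL-1β libraries. The knockout of *Stk11*, the gene of the kinase LKB1, was shared by clone A1, clone A2 and the *Lkb1*-/- MEFs, so it was present in the untreated and the treated libraries of clone A1 alike. Clone A1 was grown from a single cell after transfection with Cas9 and guides against the first exon of *Crtc2*, so the loss of CRTC2 cannot be told apart from other properties of this clone. The labels give neither the dose nor the time of IL-1β. The study's methods give a dose of 0.1 ng/mL for MEFs, and it gives 6 hours for its expression analysis of stimulated wild-type and *Lkb1*-/- MEFs and for a PCR of mRNAs that included clone A1. The dose and the time of the RNA-seq libraries of clone A1 were not found stated separately. Nothing states that replicates were separate cultures, so p-values measure the spread between these libraries, which may be technical.

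IL-1β binds the receptor IL-1R1, which recruits the adaptor MyD88, the IRAK kinases and the ubiquitin ligase TRAF6. This complex activates the IκB kinases and MAP kinases, so that NF-κB is released to the nucleus and AP-1 factors are activated. In fibroblasts the pathway is known for inducing neutrophil chemokines, IL-6 family cytokines, matrix proteases and inhibitors of the pathway itself. CRTC2 is a coactivator of the transcription factor CREB, and the salt-inducible kinases that LKB1 activates keep it out of the nucleus.

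Between 38958166 and 44453613 read pairs per library of clone A1 were counted on genes, with a median of 41499924. The 2 libraries with replicate number 1 stood apart from the rest of clone A1. A chi-square statistic of the counts, per degree of freedom, was 12.1 between untreated replicates 2 and 3 and 11.6 between IL-1β replicates 2 and 3, and it lay between 37.7 and 67.0 in the pairs with a replicate 1. Counts of calls in clone A1 are therefore also given without both replicate 1 libraries. The 10 fibroblast markers summed to between 9035 and 9936 CPM (the count relative to the scaled library size) in the untreated and between 8027 and 8959 CPM in the IL-1β libraries, and 1 of them, *Thy1*, was under 1 CPM in every library, while *S100a4* lay between 0.390 and 1.03 CPM. Markers of macrophages and leukocytes summed to between 14.2 and 17.6 CPM without treatment and to between 17.0 and 20.4 CPM after IL-1β, and 5 of these 8 genes were under 1 CPM in every library. All 6 markers of T and B cells and all 6 epithelial markers were under 1 CPM in every library, as were 4 of 5 endothelial markers.

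The targeted genes were measured first. *Stk11* stood at 21.8, 21.6 and 20.7 CPM in the untreated libraries of clone A1 (replicates 1, 2 and 3, the order used throughout) and at 23.1, 23.0 and 21.4 CPM after IL-1β. Wild-type MEFs had 86.0 ± 1.68 CPM (mean ± SD, n = 3) without treatment, far above the range of clone A1. *Crtc2* was at 45.2, 41.1 and 42.4 CPM untreated and at 52.4, 46.1 and 43.1 CPM after IL-1β in clone A1, against 58.4 ± 2.44 CPM in untreated wild-type and 81.1 ± 1.80 CPM in untreated *Lkb1*-/- MEFs. *Crtc2* mRNA was thus still present in the clone, and a count over the whole gene does not test an edit in the first exon. Neither gene passed the test for a change with IL-1β (FDR = 0.802 and 0.471).

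Of the 17522 genes tested with edgeR, 348 were called at a Benjamini-Hochberg FDR under 0.05 in clone A1, 210 of them higher and 138 lower after IL-1β. Called higher were thus 1.2% of all tested genes, and called lower 0.788%. The genes called higher had a median log2 fold change of 1.05 and those called lower of -0.507, whereas the median over all tested genes was -0.0132. A log2 fold change above 1 was reached by 110 of the genes called higher, and one below -1 by 16 of those called lower. Increases were thus larger than decreases in the typical called gene.

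**Figure D1:**
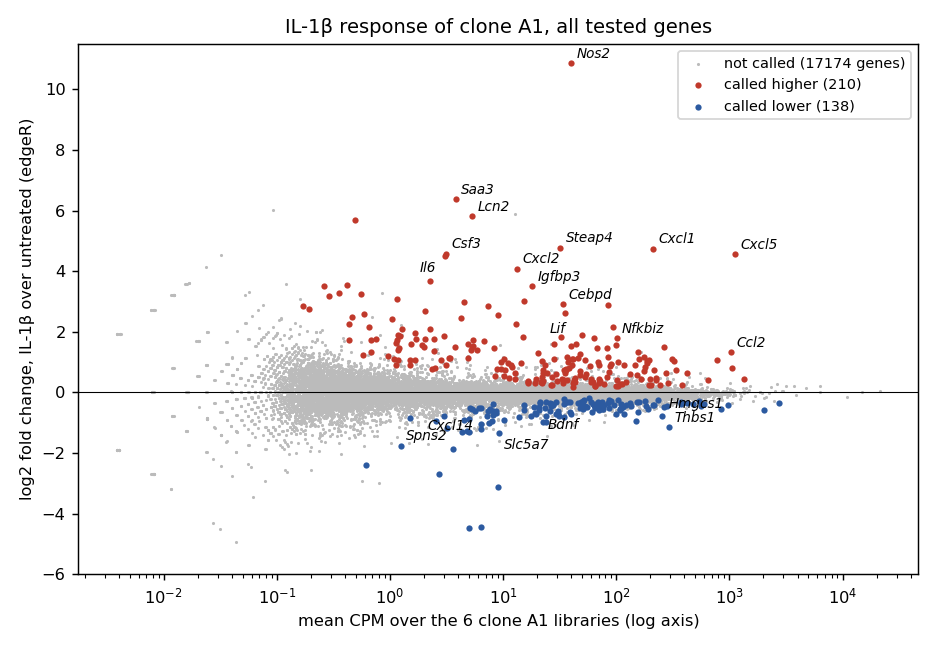
The log2 fold change of each tested gene after IL-1β in clone A1 (vertical axis) against its mean CPM over the 6 libraries (horizontal, log axis), with the 210 genes called higher in red, the 138 called lower in blue and the others in grey. *Nos2* lies far above the rest, but its fitted value rests on 1 to 3 counts per untreated library, and the chemokines *Cxcl1* and *Cxcl5* combine a large change with many counts.

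In 345 of the 348 called genes the 3 IL-1β and the 3 untreated libraries did not overlap in CPM. Among all tested genes, 7.74% had no overlap with IL-1β higher and 9.49% with IL-1β lower. The 3 called genes with overlap were the ribosomal protein pseudogenes *Rps13-ps1* and *Rpl10-ps6* and the predicted gene *Gm4294*, named here after their values were seen. *Rps13-ps1* was at 27.8 CPM in untreated replicate 1 and between 0.245 and 0.668 CPM in the other 5 libraries. Without untreated replicate 1 the log2 fold changes of these 3 genes went from -4.48, -3.13 and -4.43 to 0.17, 0.26 and 0.34. They are therefore not read as a response, although they remain in the counts of called genes given here. Their calls were also lost without any 1 of the 3 IL-1β libraries.

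Same-numbered libraries deviated together, so the fit was repeated with a replicate block, a term for each combination of genotype and replicate number. With the block, 992 genes were called higher and 1868 lower, which is 5.66% and 10.7% of those tested, and all 348 genes remained called. The median log2 fold change was 0.32 in the genes called higher with the block and -0.24 in those called lower. Without both replicate 1 libraries and without the block, 121 genes were called higher and 35 lower, and 154 of these 156 were among the 348. Leaving out 1 library at a time gave between 197 and 233 calls, and 150 genes were called in all 6 of these fits. The counts of calls in the lists below stand beside 1.2% of all tested genes called higher and 0.788% lower. With the block these shares were 5.66% and 10.7%.

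The neutrophil-attracting CXC chemokines had the highest median change of the lists. Of the 5 genes tested, 4 were called higher and 0 lower, with a median log2 fold change of 4.08. Without both replicate 1 libraries 3 remained called, and with the block all 5 were. *Cxcl1*, a ligand of the neutrophil receptor CXCR2 (ENSMUSG00000029380.11, chromosome 5, 90891241 to 90893115, GRCm38), was at 15.97, 17.6 and 11.6 CPM untreated and at 374, 388 and 452 CPM after IL-1β. Every treated library lay far above every untreated one, with a log2 fold change of 4.75 (SE = 0.22, FDR = 1.05e-11). *Cxcl5*, another CXCR2 ligand, went from 102, 89.7 and 82.2 CPM to 1989, 1982 and 2477 CPM (log2 fold change 4.56, SE = 0.19, FDR = 3.16e-12). In both genes the lowest treated library exceeded the highest untreated one many times over. *Cxcl2* was low without treatment, at 1.41, 1.66 and 1.36 CPM, and reached 23.8, 24.2 and 27.1 CPM after IL-1β (log2 fold change 4.08, SE = 0.21, FDR = 3.81e-10). For *Cxcl3* the counts were few, with 0.0976, 0.024 and 0.046 CPM untreated and 0.515, 0.576 and 0.474 CPM after IL-1β (log2 fold change 3.17, SE = 0.78, FDR = 0.0354). Its call was lost without any 1 of the 6 libraries, with an FDR of up to 0.169. *Ppbp*, the gene of the platelet chemokine precursor, stood at 2.73, 1.97 and 3.75 CPM and 4.56, 5.11 and 5.39 CPM without overlap, and it passed the threshold only with the block (FDR = 0.173 without and 0.00175 with the block).

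These 5 genes lie within 1 stretch of chromosome 5, between 90759360 and 90905938. In this interval 6 genes were tested and 5 were called, namely *Cxcl1*, *Cxcl2*, *Cxcl3*, *Cxcl5* and the small predicted gene *Gm22816*. Neighbouring chemokine genes are similar in sequence, and read pairs that map to several genes were not counted, which leaves some uncertainty in each of these counts. The promoters of 3 of them are shown because their mRNAs were called higher together and because they carry the same match to the NF-κB consensus. The sequences are the 250 bases before the RefSeq start site on build GRCm38.p6, 5′ to 3′ on the strand of the gene, with each match to the consensus in capitals. All 3 are on the plus strand.
*Cxcl1*, chr5:90890995-90891244: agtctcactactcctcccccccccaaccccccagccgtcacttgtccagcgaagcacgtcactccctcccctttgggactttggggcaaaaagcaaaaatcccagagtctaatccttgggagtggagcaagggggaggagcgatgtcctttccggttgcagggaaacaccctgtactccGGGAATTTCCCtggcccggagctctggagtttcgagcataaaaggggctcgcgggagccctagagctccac
*Cxcl2*, chr5:90903649-90903898: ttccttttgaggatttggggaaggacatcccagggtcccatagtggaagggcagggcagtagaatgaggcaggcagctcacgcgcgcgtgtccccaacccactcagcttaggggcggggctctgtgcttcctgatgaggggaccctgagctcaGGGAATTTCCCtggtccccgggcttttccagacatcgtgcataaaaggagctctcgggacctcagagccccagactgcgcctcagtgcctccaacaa
*Cxcl3*, chr5:90785851-90786100: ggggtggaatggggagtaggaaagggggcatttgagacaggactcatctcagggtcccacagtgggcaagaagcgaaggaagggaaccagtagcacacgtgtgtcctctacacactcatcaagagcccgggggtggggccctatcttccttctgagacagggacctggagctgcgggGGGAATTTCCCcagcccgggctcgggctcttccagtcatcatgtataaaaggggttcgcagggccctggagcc
In each of the 3 sequences the run in capitals was GGGAATTTCCC, which holds 2 overlapping matches. The first base of the run was 71 bases before the start site in *Cxcl1*, 97 in *Cxcl2* and 73 in *Cxcl3*. Among all 32851 windows of 300 bases in the RefSeq table (250 before to 50 after a start), 8.46% held a match on either strand. Among the 13900 windows of tested genes 10.6% did. Only 134 of the 210 genes called higher and 10887 of the 17522 tested had a window in this table. A check of the called genes would thus leave out part of the set and is not reported here. The promoters printed here and below were chosen by gene, these 3 also for their match, and do not show how common a match is among the called genes. A match is a description of the letters and not of binding.

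**Figure D2:**
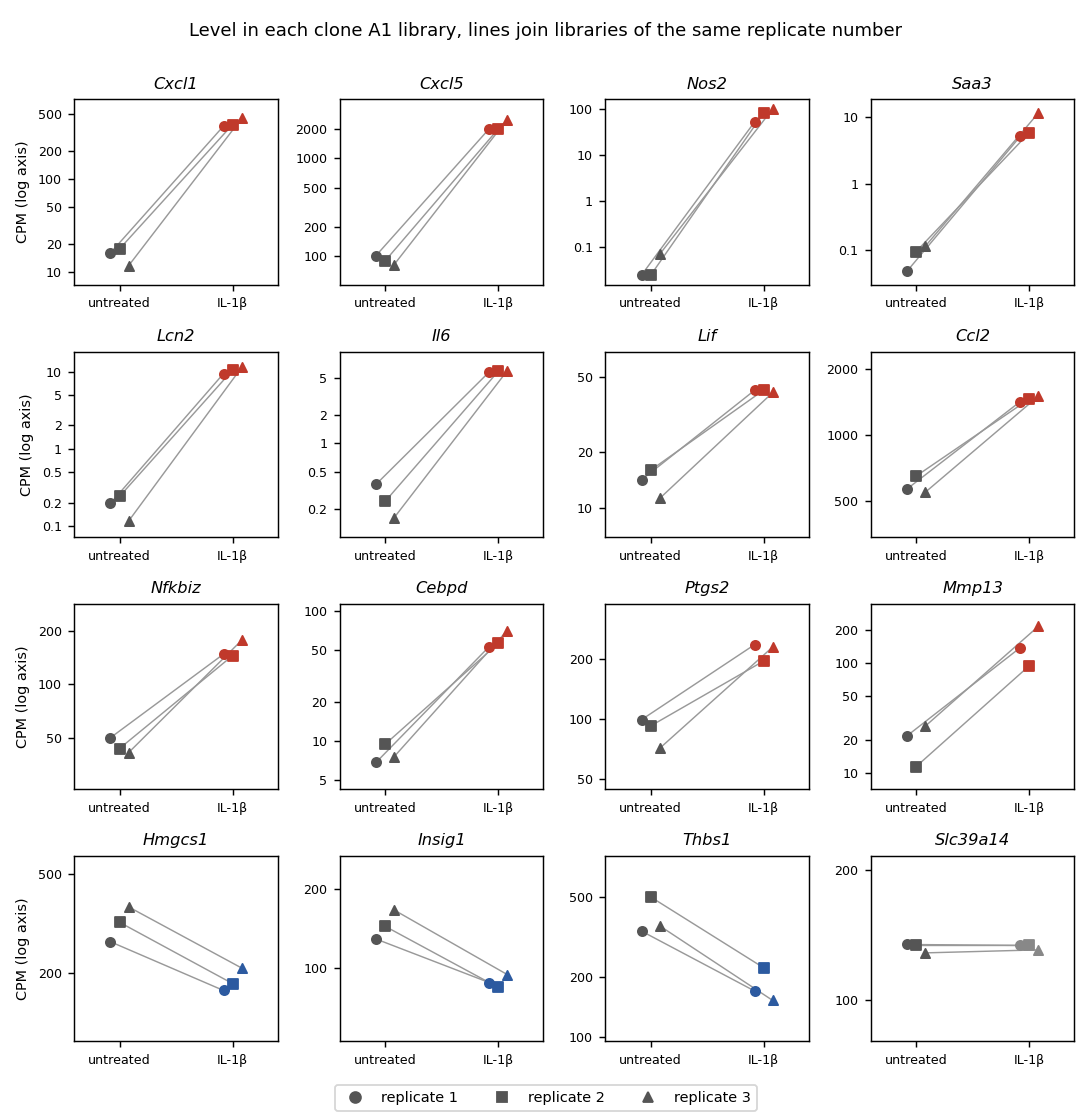
CPM (log axis) of 16 genes in each library of clone A1, untreated on the left and with IL-1β on the right of each panel, with lines joining libraries of the same replicate number and symbols giving that number. The IL-1β points are red in genes called higher, blue in genes called lower and light grey in *Slc39a14*, which was not called, and in the called genes no treated library enters the untreated range.

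Other chemokines were called as well, mostly higher. Of 9 CC chemokines tested 4 were called higher and 0 lower (8 and 0 with the block, 3 and 0 without both replicate 1 libraries), with a median log2 fold change of 1.32. *Ccl2*, which attracts monocytes, was already abundant at 567, 649.6 and 547 CPM and stood at 1424, 1465 and 1508 CPM after IL-1β. The 3 treated libraries were close together and clear of the untreated ones, with a log2 fold change of 1.32 (SE = 0.10, FDR = 5.75e-08). *Ccl7*, its neighbour in the genome and also a monocyte attractant, rose from 501, 546 and 462 CPM to 1091, 1085 and 1017 CPM (log2 fold change 1.08, SE = 0.14, FDR = 8.39e-05). *Ccl5*, which attracts T cells and monocytes, was scarce at 1.15, 1.66 and 1.15 CPM and reached 5.69, 7.92 and 7.84 CPM (log2 fold change 2.44, SE = 0.44, FDR = 0.0025). None of these 3 genes overlapped between the groups. The eosinophil attractant *Ccl11* stayed near 1 CPM after treatment, at 0.981, 1.01 and 0.924 CPM against 0.317, 0.504 and 0.345 CPM untreated (log2 fold change 1.32, SE = 0.30, FDR = 0.0286). Its call was lost without any 1 library except untreated replicate 2, with an FDR of up to 0.151, and also with unstranded counts (FDR = 0.0623) and with no filter on low counts (FDR = 0.056).

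Among the 8 remaining chemokine genes tested, 2 were called higher and 1 lower (3 and 2 with the block, and again 2 and 1 without both replicate 1 libraries). *Cx3cl1*, a membrane-bound chemokine for monocytes, went from 28.5, 30.0 and 26.8 CPM to 52.6, 69.8 and 81.0 CPM, so that the treated range began well above the untreated one (log2 fold change 1.25, SE = 0.17, FDR = 8.55e-05). *Cxcl16*, also made as a membrane-bound form, was at 1.93, 3.02 and 3.54 CPM and then at 5.79, 8.66 and 9.89 CPM (log2 fold change 1.52, SE = 0.27, FDR = 0.00236). *Cxcl14* moved the other way, from 8.68, 9.03 and 12.3 CPM to 4.71, 4.37 and 5.74 CPM (log2 fold change -1.02, SE = 0.17, FDR = 0.00314). It was the only chemokine on these lists that was called lower.

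The IL-6 family ligands signal through the receptor subunit gp130 to STAT3. Of the 6 ligands tested, *Il6* and *Lif* were called higher and none lower, with the block and without both replicate 1 libraries too. *Il6* (ENSMUSG00000025746.11, chromosome 5, 30013114 to 30019981, GRCm38) was barely detected at 0.366, 0.24 and 0.161 CPM and stood at 5.79, 5.87 and 5.97 CPM after IL-1β. The treated libraries were nearly equal, with a log2 fold change of 4.52 (SE = 0.34, FDR = 3.24e-08). *Lif*, which keeps stem cells in culture undifferentiated, was at 14.2, 15.96 and 11.3 CPM and then at 42.5, 42.6 and 41.3 CPM, again with treated libraries that hardly differed (log2 fold change 1.61, SE = 0.15, FDR = 5.68e-07). *Il11* stood at 2.07, 2.04 and 1.68 CPM without and 2.55, 2.44 and 1.97 CPM with IL-1β, and the groups overlapped (FDR = 0.839, and 0.284 with the block). *Clcf1* overlapped likewise, at 27.2, 18.8 and 16.9 CPM and 30.9, 19.9 and 17.4 CPM (FDR = 0.933).

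The promoters of *Il6* and *Lif* are shown as those of the 2 called ligands, in the same format as above. Both genes lie on the plus strand.
*Il6*, chr5:30012864-30013113: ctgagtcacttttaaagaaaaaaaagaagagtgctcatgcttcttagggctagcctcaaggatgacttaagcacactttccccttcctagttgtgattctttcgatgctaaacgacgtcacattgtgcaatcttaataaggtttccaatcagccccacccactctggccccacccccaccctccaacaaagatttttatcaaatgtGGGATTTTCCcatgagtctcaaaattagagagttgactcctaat
*Lif*, chr11:4257318-4257567: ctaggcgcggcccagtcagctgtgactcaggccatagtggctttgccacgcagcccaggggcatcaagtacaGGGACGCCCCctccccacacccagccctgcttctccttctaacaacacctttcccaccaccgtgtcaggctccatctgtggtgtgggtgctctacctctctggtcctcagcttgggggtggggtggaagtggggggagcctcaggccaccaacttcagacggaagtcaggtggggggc
The run in capitals, the match to the NF-κB consensus, began 44 bases before the start site in *Il6* and 178 bases before it in *Lif*. The AP-1 site, searched as TGANTCA on both strands, was found 249 bases before the start of *Il6* and 228 bases before that of *Lif*. One was held by 7.81% of all windows in the table and by 5.6% of those of tested genes. The CRE, the palindromic binding site of CREB, was searched as TGACGTCA and was not among the letters of either window. It was held by 1.79% of all windows and by 2.93% of those of tested genes. Only this full sequence was searched, so shorter or inexact sites were not. The *Il6* window holds CGACGTCA, which differs from it in the first letter.

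On the receiving side of these ligands, 1 of 15 genes (6.67%, beside 1.2% of all genes) of the gp130 receptor, STAT3 and SOCS list was called, higher. With the block 4 were called higher and 2 lower, beside 5.66% and 10.7% of all genes, and without both replicate 1 libraries 0. *Il6ra*, the receptor subunit specific for IL-6, went from 20.7, 20.02 and 18.7 CPM to 25.6, 27.1 and 24.4 CPM without overlap (log2 fold change 0.38, SE = 0.09, FDR = 0.0268). This call was lost without any library except IL-1β replicate 3, with an FDR of up to 0.158. *Stat3* was at 124, 148 and 147 CPM and 91.7, 108 and 103 CPM, a log2 fold change of -0.47 that passed the threshold only with the block (FDR = 0.266 without and 8.21e-07 with it). *Socs3*, the feedback inhibitor of gp130 signalling, overlapped between the groups, with 32.3, 34.1 and 41.8 CPM and 37.2, 39.2 and 55.1 CPM (FDR = 0.794, and 0.00312 with the block).

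Colony-stimulating and other secreted factors gave 7 genes called higher and 0 lower of 21 tested (10 and 3 with the block, 5 and 0 without both replicate 1 libraries). *Csf3*, which encodes the granulocyte factor G-CSF, was at 0.268, 0.216 and 0.253 CPM and rose to 5.49, 4.49 and 7.89 CPM (log2 fold change 4.58, SE = 0.52, FDR = 1.18e-05). *Csf2*, the gene of GM-CSF, had 1, 0 and 1 counts in the untreated and 44, 21 and 54 counts in the IL-1β libraries. The ratio of these counts per library size was 60.4, with a 95% counting interval from 16.4 to 505 (exact, counting error only). *Csf1*, the macrophage factor, was by contrast high in both groups, at 740.5, 783 and 576 CPM and 731, 777 and 585 CPM, and did not pass the test (FDR = 0.998). *Tnfsf11*, which encodes the osteoclast factor RANKL, went from 7.95, 7.13 and 4.78 CPM to 22.9, 22.9 and 24.8 CPM, with a wide gap between the groups (log2 fold change 1.83, SE = 0.30, FDR = 0.002). Of the genes named so far on this list only *Csf1* overlapped. The growth factor *Fgf7*, made by fibroblasts for epithelial cells, was at 125, 141 and 114 CPM and then at 252, 277 and 262 CPM (log2 fold change 1.06, SE = 0.14, FDR = 7.68e-05). *Ereg*, a ligand of the EGF receptor, rose from 43.9, 33.8 and 29.2 CPM to 119, 87.2 and 91.9 CPM (log2 fold change 1.48, SE = 0.21, FDR = 0.000198).

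The other called genes of this list were closer to the threshold or rested on single libraries. *Vegfa*, the angiogenic factor, was at 39.7, 34.1 and 40.3 CPM and 61.1, 47.7 and 61.8 CPM without overlap (log2 fold change 0.58, SE = 0.15, FDR = 0.0488). Its call was lost without any library except IL-1β replicate 2, with an FDR of up to 0.232, and under upper quartile scaling (FDR = 0.0511). *Tslp*, a cytokine for dendritic cells, stood at 0.951, 1.20 and 0.758 CPM and 4.39, 2.05 and 2.22 CPM, and IL-1β replicate 1 was the highest of all (log2 fold change 1.57, SE = 0.30, FDR = 0.00447). It kept its call without any single library, and lost it without both replicate 1 libraries (FDR = 0.143) and in a fit of only the 6 libraries of clone A1 (FDR = 0.055).

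Of 19 acute-phase, complement and antimicrobial genes tested, 6 were called higher and 0 lower, with the same count without both replicate 1 libraries and 13 with the block. The median log2 fold change of this list was 0.76, against -0.0132 over all genes. *Nos2*, the inducible nitric oxide synthase, had 1, 1 and 3 counts in the untreated libraries and 2162, 3607 and 4086 counts after IL-1β. This ratio was about 2000, with a 95% counting interval from 857 to 6170, and the treated libraries stood at 53.0, 83.0 and 102 CPM. *Saa3*, an acute-phase protein of inflamed tissue, went from 0.0488, 0.096 and 0.115 CPM to 5.15, 5.85 and 11.6 CPM, with IL-1β replicate 3 the highest (log2 fold change 6.38, SE = 1.14, FDR = 0.00235). *Lcn2*, which binds bacterial siderophores, was at 0.195, 0.24 and 0.115 CPM and then at 9.42, 10.5 and 11.3 CPM (log2 fold change 5.81, SE = 0.72, FDR = 7.67e-05). Both went from a trace to a clearly measured level in every library. The metalloreductase gene *Steap4* rose from 1.76, 2.26 and 2.76 CPM to 49.1, 56.0 and 80.9 CPM (log2 fold change 4.78, SE = 0.49, FDR = 3.56e-06).

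In the same list, *Mt2*, a metallothionein, was nearly equal in the untreated libraries at 107, 108 and 108 CPM and higher in every IL-1β library at 227, 244 and 261 CPM (log2 fold change 1.18, SE = 0.14, FDR = 3.14e-05). *Mt1*, its neighbour, was at 185, 199 and 209 CPM and 245, 279 and 306 CPM without overlap and was called only with the block (FDR = 0.164 without and 5.95e-08 with it). *Ch25h*, which makes 25-hydroxycholesterol, went from 1.88, 3.53 and 2.53 CPM to 12.6, 15.9 and 17.7 CPM (log2 fold change 2.54, SE = 0.31, FDR = 3.32e-05). The complement gene *C3* stood at 116, 156 and 138 CPM and 194, 249 and 256 CPM, did not overlap, and passed only with the block (log2 fold change 0.77, FDR = 0.115 without and 1.03e-09 with it). *Slc39a14*, the zinc importer of the acute-phase response, was the same in all 6 libraries to within a few CPM, at 134, 134 and 129 CPM untreated and 134, 134 and 131 CPM after IL-1β (log2 fold change 0.01, SE = 0.07).

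The NF-κB subunits and their feedback inhibitors were led by the inhibitors. Of 24 genes tested 8 were called higher and 0 lower (13 and 1 with the block, 5 and 0 without both replicate 1 libraries), with a median log2 fold change of 0.21. *Zc3h12a*, an RNase that degrades cytokine mRNAs and is also on the list of mRNA decay factors, rose from 11.2, 9.70 and 9.01 CPM to 52.3, 59.2 and 72.0 CPM (log2 fold change 2.62, SE = 0.16, FDR = 1.39e-09). *Nfkbiz*, a nuclear IκB protein needed for secondary response genes such as *Lcn2* and *Il6*, was at 50.2, 43.6 and 41.4 CPM and then at 148, 145 and 176 CPM (log2 fold change 1.79, SE = 0.11, FDR = 2.04e-09). *Nfkbia*, which encodes IκBα, stood at 115, 142 and 113 CPM and 223, 260.0 and 269.9 CPM (log2 fold change 1.02, SE = 0.11, FDR = 8.57e-06). The treated libraries of these 3 genes all exceeded the untreated ones. *Tnfaip3*, the gene of the ubiquitin-editing inhibitor A20, likewise had no overlap, with 60.02, 71.9 and 53.4 CPM untreated and 108, 119 and 129.9 CPM after IL-1β (log2 fold change 0.94, SE = 0.13, FDR = 0.000119). Its partner *Tnip3* was scarce, at 1.15, 1.54 and 1.38 CPM and 2.87, 2.90 and 4.72 CPM (log2 fold change 1.37, SE = 0.29, FDR = 0.0134), and the call was lost without untreated replicate 1, untreated replicate 3 or IL-1β replicate 3 (FDR up to 0.0872).

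Among the subunits themselves, *Nfkb1*, the gene of p105 and p50, rose from 125, 142 and 135 CPM to 192, 233 and 233 CPM (log2 fold change 0.71, SE = 0.09, FDR = 4.78e-05). *Rela*, the transactivating subunit p65, overlapped between the groups at 67.6, 73.6 and 67.7 CPM and 65.4, 73.3 and 73.2 CPM (FDR = 0.958). *Relb* and *Nfkb2*, the subunits of the noncanonical pathway, had log2 fold changes of 0.20 (SE = 0.12, FDR = 0.632) and 0.04 (SE = 0.07, FDR = 0.919), and *Relb* passed with the block (FDR = 0.0368). Of these subunits, then, only *Nfkb1* was called without the block. *Bcl3*, a nuclear IκB protein, was at 25.4, 27.0 and 32.7 CPM and 47.0, 47.6 and 63.5 CPM (log2 fold change 0.89, SE = 0.22, FDR = 0.0329), and this call was lost without any 1 of the 6 libraries (FDR up to 0.138). The adaptor gene *Traf2* went from 50.6, 54.6 and 51.4 CPM to 63.4, 70.3 and 66.5 CPM (log2 fold change 0.35, SE = 0.07, FDR = 0.00679) and lost its call without IL-1β replicate 2 (FDR = 0.0575).

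The promoter of *Nfkbia* is shown as that of the principal feedback inhibitor, again as the 250 bases before the start, here on the minus strand.
*Nfkbia*, chr12:55492648-55492897: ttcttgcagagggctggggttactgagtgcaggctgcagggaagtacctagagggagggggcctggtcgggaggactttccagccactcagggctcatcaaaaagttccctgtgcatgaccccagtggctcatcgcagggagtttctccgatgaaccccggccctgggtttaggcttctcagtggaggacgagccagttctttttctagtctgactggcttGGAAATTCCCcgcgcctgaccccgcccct
The match to the NF-κB consensus, in capitals, began 29 bases before the start site.

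Upstream of NF-κB lie the genes of IL-1 receptor signalling. Of 23 tested, 2 (8.70%, beside 1.2% of all genes) were called higher and 0 lower (5 and 0 with the block, 1 and 0 without both replicate 1 libraries), and the median log2 fold change was 0.05. *Il1r1*, the receptor itself, overlapped between the groups at 93.2, 100.2 and 83.4 CPM and 114, 113 and 92.4 CPM, and it passed only with the block (log2 fold change 0.21, FDR = 0.689 without and 0.00102 with it). *Myd88*, the adaptor, was at 38.5, 37.9 and 44.9 CPM and 37.2, 38.5 and 45.0 CPM (FDR = 0.995). *Irak3*, an inhibitory member of the IRAK family, was at 2.49, 3.55 and 3.75 CPM and 3.04, 3.57 and 3.50 CPM (FDR = 0.981). In all 3 of these genes the groups overlapped. *Map3k8*, a kinase that links the receptor to ERK, had the lowest FDR of the list, with 3.41, 2.74 and 3.08 CPM untreated and 6.82, 6.70 and 6.64 CPM after IL-1β (log2 fold change 1.13, SE = 0.16, FDR = 0.000269). *Il1rl1*, the receptor for IL-33, was abundant at 942, 656 and 711 CPM and stood at 1555, 1215 and 1279 CPM after IL-1β (log2 fold change 0.81, SE = 0.18, FDR = 0.0211). Its call was lost without IL-1β replicate 1, untreated replicate 2, untreated replicate 3 or IL-1β replicate 3 (FDR up to 0.132). *Il1rn*, the receptor antagonist, was highest in replicate 3 of both groups, at 2.80, 3.10 and 8.203 CPM and 9.02, 10.5 and 22.2 CPM, and passed only with the block (FDR = 0.108 without and 9.47e-09 with it).

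**Figure D3:**
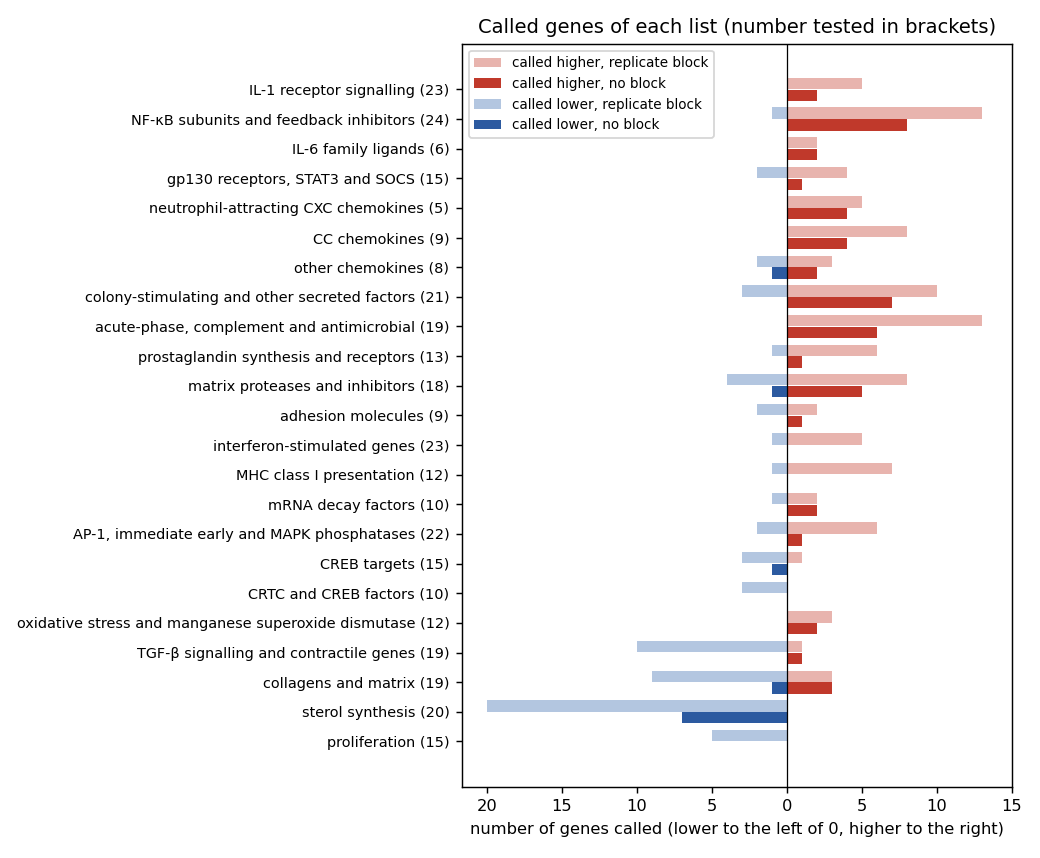
Number of genes of each list called higher (red, right of 0) or lower (blue, left of 0) in clone A1 after IL-1β, without the replicate block (dark) and with it (light), with the number tested in brackets. The NF-κB, chemokine, secreted factor and acute-phase lists extend to the right, the sterol synthesis list to the left, and the light bars are longer than the dark ones in most lists.

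The list of AP-1 factors and the list of CREB targets gave 1 call each. Of 22 genes of AP-1 factors, immediate early genes and MAPK phosphatases, 1 (4.55%, beside 1.2% of all genes) was called higher and 0 lower (6 and 2 with the block, 1 and 0 without both replicate 1 libraries). The called gene was *Ier3*, an early survival gene, at 46.5, 47.5 and 39.5 CPM untreated and 117, 119 and 131 CPM after IL-1β (log2 fold change 1.46, SE = 0.08, FDR = 3.55e-10). *Egr1*, an immediate early transcription factor, was at 38.9, 61.3 and 63.4 CPM and 21.02, 28.1 and 32.1 CPM and passed only with the block (log2 fold change -1.01, FDR = 0.369 without and 2.62e-10 with it). Of 15 CREB targets 0 were called higher and 1 lower, beside 0.788% of all genes called lower (1 and 3 with the block, 0 and 0 without both replicate 1 libraries), and the median log2 fold change was 0.02. *Bdnf*, a neurotrophin, was the called one, at 41.5, 38.4 and 31.1 CPM and 27.8, 25.4 and 19.7 CPM (log2 fold change -0.61, SE = 0.15, FDR = 0.0405). Its call was lost without untreated replicate 1 or 2 or IL-1β replicate 2 or 3 (FDR up to 0.279) and under 2 other scalings, when 10 or more counts were required of each library, and in a fit of only the 6 libraries (FDR up to 0.107). *Nr4a1* and *Crem*, commonly used as readouts of CREB, had log2 fold changes of -0.04 (SE = 0.17) and 0.13 (SE = 0.14). Of the 15 CREB targets DESeq2 called 2 lower, and 3 were lower and 1 higher at an unadjusted p under 0.05 in edgeR. In wild-type MEFs, *Lkb1*-/- MEFs and clone A2, 0, 2 and 4 of them were called lower. None of the 10 genes of the CRTC and CREB factors was called without the block, at a median of -0.11. DESeq2 called 0, 1 was lower at an unadjusted p under 0.05 in edgeR, 3 were called lower with the block, and 0 were called without both replicate 1 libraries.

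Among 10 mRNA decay factors, 2 (20%, beside 1.2% of all genes) were called higher and 0 lower (2 and 1 with the block, 1 and 0 without both replicate 1 libraries). Besides *Zc3h12a* this was *Zfp36l1*, which binds AU-rich elements, at 139.6, 148 and 132 CPM and 194, 201 and 181 CPM (log2 fold change 0.46, SE = 0.11, FDR = 0.0409). This call was lost without any library except IL-1β replicate 3 (FDR up to 0.199), and with unstranded counts (FDR = 0.0611).

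Prostaglandin synthesis gave a single call. *Ptgs2*, the inducible cyclooxygenase, was the 1 gene called of 13 (7.69%, beside 1.2% of all genes) on the prostaglandin list (6 higher and 1 lower with the block, 0 without both replicate 1 libraries). It stood at 99.6, 92.6 and 71.5 CPM untreated and at 237, 196 and 231 CPM after IL-1β (log2 fold change 1.33, SE = 0.26, FDR = 0.00491). *Ptges*, which acts downstream of it, was at 0.537, 0.672 and 0.712 CPM and 1.32, 0.99 and 2.17 CPM and passed only with the block (FDR = 0.185 without and 0.00202 with it).

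Matrix proteases and their inhibitors gave 5 genes called higher (27.8%, beside 1.2% of all genes) and 1 lower of 18 tested (8 and 4 with the block, 3 and 0 without both replicate 1 libraries). The collagenase gene *Mmp13* differed between replicates but rose in each, from 21.8, 11.4 and 26.6 CPM to 137, 94.0 and 214 CPM (log2 fold change 2.89, SE = 0.51, FDR = 0.00194). *Mmp3*, stromelysin 1, was at 185, 129.5 and 102 CPM and then at 454, 328 and 401 CPM (log2 fold change 1.50, SE = 0.26, FDR = 0.00165). *Mmp10*, stromelysin 2, went from 1.80, 1.10 and 2.41 CPM to 12.8, 8.93 and 17.0 CPM (log2 fold change 2.86, SE = 0.46, FDR = 0.000936). The 3 proteases shared an increase within every replicate number. The elastase gene *Mmp12* spread widely after IL-1β, at 1.72, 3.06 and 7.69 CPM against 0.341, 0.408 and 0.23 CPM untreated (log2 fold change 3.66, SE = 0.80, FDR = 0.0159), and its call was lost without any 1 of the untreated libraries or IL-1β replicate 3 (FDR up to 0.0991) and with the newer quasi-likelihood method (FDR = 0.0581). *Mmp9*, a gelatinase, was at 6.46, 9.36 and 8.48 CPM and 11.4, 14.8 and 19.4 CPM (log2 fold change 0.91, SE = 0.21, FDR = 0.0217), and its call was lost without untreated replicate 1 or 3 or IL-1β replicate 2 or 3 (FDR up to 0.125). *Plau*, the urokinase gene, was the one called lower, from 94.3, 109 and 103 CPM to 68.6, 77.5 and 69.5 CPM (log2 fold change -0.51, SE = 0.10, FDR = 0.00721), and lost its call without untreated replicate 2 or IL-1β replicate 3 (FDR up to 0.0816).

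Of 9 adhesion molecules 1 (11.1%, beside 1.2% of all genes) was called, higher. With the block 2 were called higher and 2 lower, beside 5.66% and 10.7% of all genes, and without both replicate 1 libraries 0. *Icam1*, a ligand of leukocyte integrins, stayed low, at 0.122, 0.264 and 0.322 CPM and 0.981, 0.875 and 1.35 CPM (log2 fold change 2.16, SE = 0.46, FDR = 0.0118), and its call was lost without untreated replicate 1, untreated replicate 2 or IL-1β replicate 3 (FDR up to 0.0772) and with unstranded counts (FDR = 0.0661). *Vcam1*, which binds integrin α4β1, was at 41.5, 70.2 and 63.5 CPM and 71.0, 108 and 105 CPM and passed only with the block (FDR = 0.101 without and 2.98e-08 with it).

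Collagens and other matrix genes were split, with 3 called higher and 1 lower of 19 (3 and 9 with the block, 2 and 0 without both replicate 1 libraries). *Dcn*, the proteoglycan decorin, rose in every replicate from 31.7, 19.8 and 34.3 CPM to 107, 65.5 and 124 CPM (log2 fold change 1.79, SE = 0.29, FDR = 0.000965). *Tnc*, which encodes tenascin C of injured tissue, went from 146, 117 and 116 CPM to 267, 236 and 245 CPM (log2 fold change 0.98, SE = 0.17, FDR = 0.00154). *Col8a1*, a short-chain collagen, was at 125, 135 and 131 CPM and 202, 238 and 254 CPM (log2 fold change 0.83, SE = 0.19, FDR = 0.0211), a call lost without any library except IL-1β replicate 1 (FDR up to 0.105). No treated library of these 3 genes fell into the untreated range. *Thbs1*, thrombospondin 1, was the one called lower, from 338, 501 and 359 CPM to 169.7, 222 and 152 CPM (log2 fold change -1.14, SE = 0.24, FDR = 0.0118). Its call was lost without IL-1β replicate 1, untreated replicate 2 or IL-1β replicate 3 (FDR up to 0.0915). In the list of TGF-β signalling and contractile genes only *Tgfbr3*, the coreceptor betaglycan, was called, from 128, 119.9 and 119 CPM to 182, 188 and 181 CPM (log2 fold change 0.58, SE = 0.10, FDR = 0.00146). The other 18 of the 19 genes tested had log2 fold changes below 0, with a median of -0.16 for the list, and 10 were called lower with the block, beside 10.7% of all genes. Without both replicate 1 libraries 1 was called higher and 0 lower.

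Interferon-stimulated genes and MHC class I genes gave 0 calls of 23 and 0 of 12 in edgeR, and 0 in DESeq2. At an unadjusted p under 0.05 stood 1 interferon-stimulated gene, higher, and 0 MHC class I genes. With the block 5 were called higher and 1 lower among the interferon-stimulated genes and 7 higher and 1 lower among the MHC class I genes. Over all genes the block called 5.66% higher and 10.7% lower. Without both replicate 1 libraries 0 were called on either list. *Gbp2*, a guanylate-binding protein, differed widely between replicates, with 24.8, 41.7 and 52.8 CPM untreated and 44.4, 75.9 and 89.7 CPM after IL-1β (log2 fold change 0.82, FDR = 0.69, and 7.95e-07 with the block). The IL-1β library was the higher one within each replicate number, while the groups as a whole overlapped.

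Of 12 oxidative stress genes, the 2 superoxide dismutases *Sod2* and *Sod3* were called higher (16.7%, beside 1.2% of all genes) and 0 lower (3 and 0 with the block, 1 and 0 without both replicate 1 libraries). *Sod3*, the extracellular form, was even in the untreated libraries at 28.4, 28.9 and 29.8 CPM and reached 53.4, 61.4 and 75.3 CPM (log2 fold change 1.13, SE = 0.21, FDR = 0.00346). *Sod2*, the mitochondrial manganese form, went from 74.3, 83.3 and 87.3 CPM to 129, 159.7 and 166 CPM (log2 fold change 0.89, SE = 0.18, FDR = 0.01), and lost its call without untreated replicate 1 (FDR = 0.0621).

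Sterol synthesis was the list with the most genes called lower. Of 20 genes tested 0 were called higher and 7 lower, beside 0.788% of all genes called lower, and all 20 were called lower with the block. Without both replicate 1 libraries 2 remained called. The log2 fold changes ran from -0.77 to -0.18 with a median of -0.52, and in 17 of the 20 genes the groups did not overlap, beside 9.49% of all tested genes that were lower without overlap. *Hmgcs1*, which makes the HMG-CoA used for cholesterol, was at 267, 319 and 368 CPM untreated and at 169.9, 181 and 209 CPM after IL-1β (log2 fold change -0.77, SE = 0.16, FDR = 0.0113). *Lss*, lanosterol synthase, went from 113, 118 and 144 CPM to 76.0, 69.0 and 80.8 CPM (log2 fold change -0.73, SE = 0.13, FDR = 0.00289). *Mvk*, mevalonate kinase, fell from 34.9, 35.3 and 42.6 CPM to 23.8, 22.8 and 24.4 CPM (log2 fold change -0.67, SE = 0.11, FDR = 0.00117). In each of these enzymes all treated libraries lay below all untreated ones. *Insig1*, the sterol sensor that holds SREBP in the endoplasmic reticulum, was at 129, 145 and 167 CPM and then at 88.5, 84.8 and 94.9 CPM (log2 fold change -0.72, SE = 0.15, FDR = 0.0128).

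The calls of *Lss* and *Mvk* held without any single library. *Mvd*, *Fdft1* and *Dhcr7*, enzymes earlier and later in the same pathway, were called with log2 fold changes of -0.72, -0.56 and -0.46 (FDR = 0.0373, 0.018 and 0.0291). The calls of *Hmgcs1* and *Insig1* were lost without IL-1β replicate 1, IL-1β replicate 2 or untreated replicate 3 (FDR up to 0.0845 and 0.091). Those of *Fdft1* and *Dhcr7* were lost without the same libraries or untreated replicate 2 (FDR up to 0.151 and 0.19), and that of *Mvd* without any library except untreated replicate 1 (FDR up to 0.248). *Ch25h*, whose product suppresses sterol synthesis, rose in the same libraries as given above, and its part in these decreases was not tested.

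**Figure D4:**
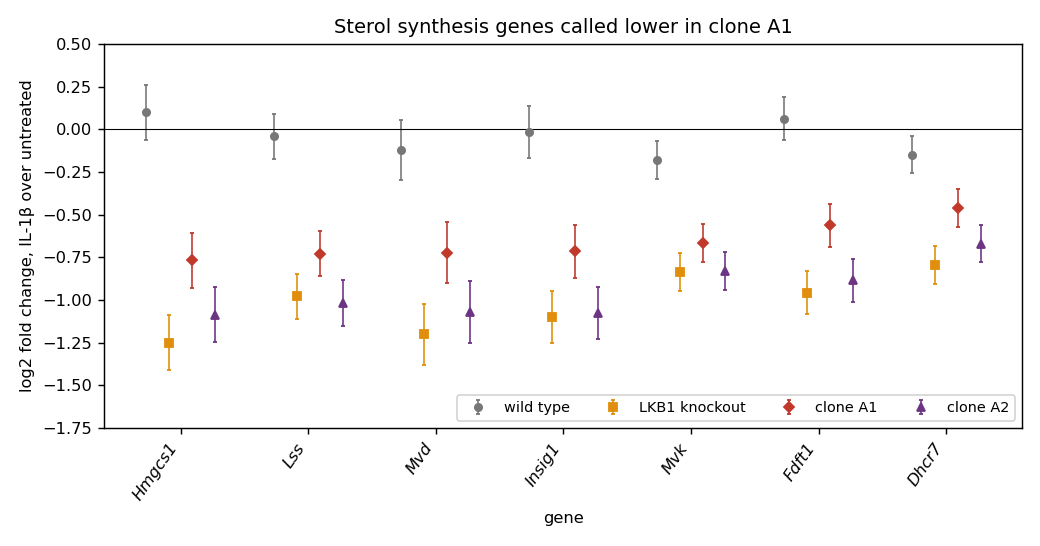
Log2 fold change after IL-1β (points, with bars of 1 SE) of the 7 sterol synthesis genes called lower in clone A1, in wild-type MEFs (grey), *Lkb1*-/- MEFs (orange), clone A1 (red) and clone A2 (purple). In clone A1 the values lie between -0.77 and -0.46, and gene by gene they are below the wild-type and above the *Lkb1*-/- value.

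The same list was compared between genotypes. In *Lkb1*-/- MEFs 19 of the 20 genes were called lower and in clone A2 18, whereas in wild-type MEFs 0 were called in edgeR, and 0 reached an unadjusted p under 0.05. The median log2 fold change was -0.85 in *Lkb1*-/- MEFs, -0.86 in clone A2 and 0.05 in wild-type MEFs, where single genes ran from -0.67 to 0.13. The response of clone A1 was the smaller decrease in all 20 genes against *Lkb1*-/- MEFs, with differences between 0.13 and 0.48. None of these differences passed the interaction test over all genes in edgeR or DESeq2, 3 had an unadjusted p under 0.05, and 4 passed with the block. Against wild-type MEFs the differences ran from -0.87 to -0.03, none passed in edgeR or DESeq2, 15 had an unadjusted p under 0.05, and 18 passed with the block. Against clone A2 the differences ran from 0.12 to 0.57, again with the smaller decrease in clone A1. None passed in edgeR or DESeq2, 3 had an unadjusted p under 0.05, and 3 passed with the block. These comparisons share the libraries of clone A1.

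The 15 proliferation genes gave 0 calls in edgeR at a median log2 fold change of -0.08. At an unadjusted p under 0.05 2 were lower, DESeq2 called 1 lower, 5 were called lower with the block, and 0 were called without both replicate 1 libraries. *Mki67* was at 633, 629 and 682 CPM untreated and at 537, 546 and 525 CPM after IL-1β, just short of the threshold without the block (log2 fold change -0.27, FDR = 0.0516 without and 0.000143 with it). *Ccnd1*, cyclin D1, was highest in replicate 1 of both groups, with 148, 101 and 112 CPM and 86.9, 60.3 and 67.4 CPM (FDR = 0.177 without and 3.16e-10 with the block).

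In all, the lists held 369 different genes, of which 344 were tested, 51 were called higher and 11 lower (35 and 3 without both replicate 1 libraries). The other 286 called genes were on no list, 159 of them higher. Several of the largest changes were among these. *Cebpd*, a transcription factor of the acute-phase response, rose from 6.85, 9.43 and 7.58 CPM to 52.9, 56.0 and 70.4 CPM (log2 fold change 2.91, SE = 0.24, FDR = 9.71e-08). *Igfbp3*, a carrier of insulin-like growth factors, was at 1.90, 2.50 and 4.41 CPM and 19.0, 26.4 and 54.7 CPM, with replicate 3 highest in both groups (log2 fold change 3.50, SE = 0.37, FDR = 9.23e-06). *Il13ra2*, a decoy receptor for IL-13, went from 0.0732, 0.144 and 0.506 CPM to 2.18, 1.43 and 2.60 CPM (log2 fold change 3.07, SE = 0.43, FDR = 0.000269). The groups were apart in all 3 genes, although *Il13ra2* had only 3 counts in untreated replicate 1. *Penk*, which encodes proenkephalin, was even at 3.49, 3.48 and 3.15 CPM untreated and stood at 24.7, 21.1 and 35.7 CPM after IL-1β (log2 fold change 3.01, SE = 0.23, FDR = 4.81e-08). *Gm16685*, a noncoding gene on chromosome 3, was at 1.02, 0.888 and 1.13 CPM and 7.53, 8.91 and 7.67 CPM (log2 fold change 2.98, SE = 0.25, FDR = 1.19e-07). With smaller changes but very small errors, *Plscr1*, a phospholipid scramblase, and *Slc11a2*, the iron transporter DMT1, had log2 fold changes of 1.16 (SE = 0.07, FDR = 3.55e-10) and 1.09 (SE = 0.08, FDR = 1.24e-08).

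Among the largest decreases, *Spns2*, the exporter of sphingosine 1-phosphate, went from 1.59, 2.09 and 2.09 CPM to 0.613, 0.553 and 0.524 CPM (log2 fold change -1.77, SE = 0.21, FDR = 2.81e-05). *Slc5a7*, the choline transporter, was at 11.6, 15.7 and 11.9 CPM and then at 4.76, 6.28 and 4.57 CPM (log2 fold change -1.33, SE = 0.20, FDR = 0.000638). *Klhdc8a* and *Slc25a48*, a mitochondrial carrier, fell by similar amounts, with log2 fold changes of -1.32 (SE = 0.23, FDR = 0.00232) and -1.30 (SE = 0.23, FDR = 0.00203). These 4 calls held without any single library. *Fam189a2* was even within both groups, at 5.44, 5.86 and 5.70 CPM and 1.69, 1.57 and 1.42 CPM (log2 fold change -1.86, SE = 0.41, FDR = 0.0193), yet its call was lost without any library except untreated replicate 1 (FDR up to 0.0838). The same held for the ion channel genes *Kcnh2* (log2 fold change -1.28, FDR = 0.0291, up to 0.193) and *Scn9a* (log2 fold change -1.20, FDR = 0.0383, up to 0.25), and *Scn9a* also lost it with unstranded counts (FDR = 0.0531). *Ldb3* had a log2 fold change of -1.19 (FDR = 0.0122) and lost its call without IL-1β replicate 1, untreated replicate 2 or IL-1β replicate 3 (FDR up to 0.0903). *Gm10169* had the lowest log2 fold change of the named genes without overlap (-2.68, FDR = 0.0409), but it was at 5.80, 7.42 and 0.988 CPM untreated, so that untreated replicate 3 lay next to the treated range of 0.638, 0.599 and 0.974 CPM. Without any library except untreated replicate 3 its call was lost (FDR up to 0.199), as it was in a fit of only the 6 libraries (FDR = 0.0779).

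The genes called in the clone were also described by their type, length, level and position. Of the genes called higher 91.9% were protein coding, of those called lower 96.4%, and of all tested genes 74.5%. The median length of a gene was 28.5 kb among those called higher, 44.4 kb among those called lower and 15.4 kb among all tested genes. The median level was 27.0 CPM in the former, 39.4 CPM in the latter and 12.1 CPM in all tested genes, and the level is no separate feature, since it comes from the counts that were tested. The 110 genes called higher with a log2 fold change above 1 had a median level of 5.23 CPM, below that of all tested genes, a median length of 17.9 kb, and 89.1% of them were protein coding. Chromosome 5, which holds the CXC cluster, *Il6*, *Steap4* and *Ereg*, carried 24 of the 210 genes called higher and 9 of the 138 called lower, beside 1222 of the 17522 tested.

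Set beside the other genotypes, whose libraries are separate, most genes called in clone A1 were called in the other LKB1-deficient cells too. In *Lkb1*-/- MEFs IL-1β gave 464 genes called higher and 367 lower (2.65% and 2.09% of those tested), and in clone A2 493 and 502 (2.81% and 2.86%). In wild-type MEFs 268 were called higher and 128 lower (1.53% and 0.731%). Of the 210 higher calls of clone A1, 184 (87.6%) were shared by *Lkb1*-/- MEFs, which is 39.7% of the genes called there, and 185 (88.1%) in clone A2, which is 37.5% there. In wild-type MEFs 108 of them (51.4%) were called higher, or 40.3% of the wild-type list. Of the 138 genes called lower, 101 (73.2%) were called lower in *Lkb1*-/- MEFs, 121 (87.7%) in clone A2 and 27 (19.6%) in wild-type MEFs, which are 27.5%, 24.1% and 21.1% of those lists. Without both replicate 1 libraries of clone A1, 116, 114 and 79 of the 121 higher calls and 34, 32 and 15 of the 35 lower calls were shared with *Lkb1*-/- MEFs, clone A2 and wild-type MEFs. In all 4 genotypes 99 genes were called higher and 18 lower. Called in clone A1 and in no other genotype were 8 genes higher and 10 lower, which does not show that their responses differed. Across 11719 genes with an average log2 CPM above 1, the log2 fold changes of clone A1 correlated with those of *Lkb1*-/- MEFs at r = 0.788, of clone A2 at r = 0.8 and of wild-type MEFs at r = 0.571 (Pearson, across genes, which are not independent replicates).

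Whether a response differed was tested as an interaction in the same edgeR fit. Against *Lkb1*-/- MEFs 5 genes were called (0.0285% of those tested), and in all 5 the response of clone A1 was the smaller. *Lif* rose by a log2 fold change of 1.61 in clone A1 and of 3.05 in *Lkb1*-/- MEFs, where it went from 9.25 ± 1.74 to 76.6 ± 7.53 CPM (mean ± SD, n = 3). The difference was -1.44 (95% interval -1.87 to -1.01, FDR = 0.0148). *Ccl2* rose by 1.32 and 2.17 on the log2 scale, a difference of -0.86 (95% interval -1.16 to -0.55, FDR = 0.0306). *Slc39a14*, not called in clone A1, rose by 0.68 in *Lkb1*-/- MEFs, from 152 ± 1.55 to 243 ± 22.7 CPM (difference -0.67, 95% interval -0.89 to -0.45, FDR = 0.0256). *Tbx3*, a developmental repressor, was called higher in both, by 0.63 and 1.31 (difference -0.68, 95% interval -0.92 to -0.44, FDR = 0.0306). *Rab11fip1*, an effector of recycling endosomes, stood at 33.5, 33.0 and 35.4 CPM untreated and 38.7, 40.4 and 46.3 CPM after IL-1β in clone A1 and rose by 1.17 in *Lkb1*-/- MEFs (difference -0.87, 95% interval -1.17 to -0.57, FDR = 0.0306). Within clone A1 it passed only with the block (log2 fold change 0.30, FDR = 0.197 without and 0.000831 with it).

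The calls of these 5 differences depended on single libraries, while their values stayed negative in all 12 fits without 1 library. The values ran from -1.58 to -1.3 for *Lif*, -0.966 to -0.755 for *Ccl2* and -0.959 to -0.768 for *Rab11fip1*. For *Slc39a14* they ran from -0.75 to -0.639 and for *Tbx3* from -0.745 to -0.62. No gene was called in edgeR without IL-1β replicate 1, untreated replicate 2 or IL-1β replicate 2 of clone A1, or without untreated replicate 3 or IL-1β replicate 3 of the *Lkb1*-/- MEFs, nor without both replicate 1 libraries of clone A1. In the fit of all 24 libraries, which called the 5, 433 genes had an unadjusted p under 0.05, in a fit of only the 12 libraries compared 551 did and 4 were called, and DESeq2 called 12. That of *Lif* was lost only in the 5 fits without a single library just named (FDR up to 0.0847), and those of *Slc39a14*, *Rab11fip1*, *Tbx3* and *Ccl2* in 8, 9, 10 and 10 of the 12 fits (FDR up to 0.111, 0.168, 0.17 and 0.18). With the block 267 differences were called, 107 with the larger and 160 with the smaller value in clone A1, and all 5 genes were among them (*Lif* at FDR = 8.76e-06). *Il6* went from 0.256 ± 0.103 to 5.88 ± 0.0901 CPM in clone A1 and from 1.89 ± 0.411 to 118 ± 8.39 CPM in *Lkb1*-/- MEFs (mean ± SD, n = 3), so that its level was lower in clone A1 in both states. Its log2 fold change was 4.52 in clone A1 and 5.96 in *Lkb1*-/- MEFs, a difference of -1.45 whose 95% interval was -2.52 to -0.38 (FDR = 1, and 0.127 with the block).

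**Figure D5:**
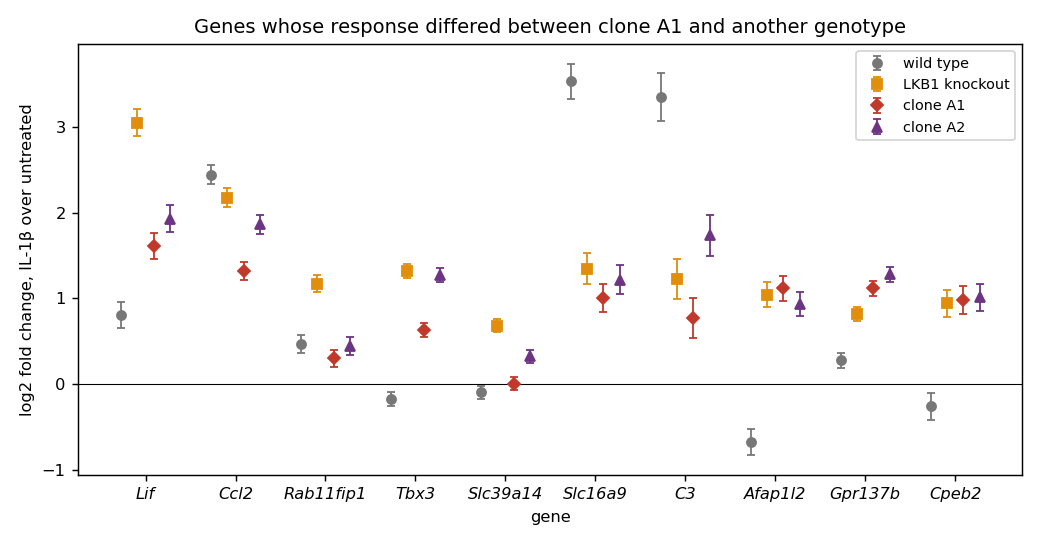
Log2 fold change after IL-1β (points, with bars of 1 SE) of 10 genes whose response in clone A1 differed from that of *Lkb1*-/- or wild-type MEFs by the interaction test, in wild-type MEFs (grey), *Lkb1*-/- MEFs (orange), clone A1 (red) and clone A2 (purple). For *Lif* and *Ccl2* clone A1 lies below *Lkb1*-/- MEFs, and for *Slc16a9* and *C3* all 3 LKB1-deficient lines lie below wild-type MEFs.

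Against wild-type MEFs 14 differences were called (0.0799%), 6 with the larger and 8 with the smaller value in clone A1, and 9 of the 14 were called without any 1 of the 12 libraries. *Slc16a9*, a carrier of the monocarboxylate transporter family, rose by 1.00 in clone A1 and by 3.53 in wild-type MEFs (difference -2.53, 95% interval -3.08 to -1.98, FDR = 9.39e-05). It went from 0.466 ± 0.157 to 5.35 ± 0.594 CPM in wild-type MEFs and from the higher level of 6.35 ± 0.737 to 12.7 ± 0.798 CPM in clone A1 (mean ± SD, n = 3). *C3* showed a difference of -2.58 (95% interval -3.33 to -1.83, FDR = 0.00169), with 3.82 ± 0.964 CPM untreated and 38.6 ± 9.72 CPM after IL-1β in wild-type MEFs and 137 ± 20.3 and 233 ± 33.8 CPM in clone A1 (mean ± SD, n = 3). Within clone A1 *C3* passed only with the block, as given above. *Rab15*, a regulator of endocytic recycling, overlapped between the groups of clone A1 and rose by 2.86 in wild-type MEFs (difference -2.64, FDR = 0.000888), where it went from 0.183 ± 0.0387 to 1.34 ± 0.462 CPM, while clone A1 stood at 6.41 ± 0.638 CPM untreated and 7.47 ± 0.758 CPM after IL-1β. *Chil1*, a chitinase-like protein, and *Ccl2* had the smaller log2 fold change in clone A1, with differences of -2.75 (FDR = 0.00484) and -1.12 (FDR = 0.000888). *Chil1* went from 0.47 ± 0.0955 to 5.52 ± 1.39 CPM in wild-type MEFs and from 3.42 ± 0.372 to 5.93 ± 0.448 CPM in clone A1. Within clone A1 *Chil1* passed only with the block (FDR = 0.173 without and 1.66e-05 with it). *Ccl2* went from 83.0 ± 4.40 to 451 ± 29.5 CPM in wild-type MEFs, from 192 ± 26.9 to 865 ± 20.99 CPM in *Lkb1*-/- MEFs and from 588 ± 54.2 to 1466 ± 41.8 CPM in clone A1. Its mean was thus highest in clone A1 in both states, and the smaller fold was over a higher untreated level, as for the other genes of this paragraph.

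In the other direction, *Afap1l2*, an adaptor of Src kinases, was called higher in clone A1 (log2 fold change 1.11) and lower in wild-type MEFs (-0.68, FDR = 0.0168), a difference of 1.79 (95% interval 1.36 to 2.22, FDR = 0.000264). *Gpr137b*, a lysosomal membrane protein, and *Tbx3* had differences of 0.84 (FDR = 0.00197) and 0.81 (FDR = 0.00197). *Dpy19l1*, at 161, 152 and 167 CPM and 261, 264 and 279.8 CPM in clone A1, had a difference of 0.70 (FDR = 0.00169). *Cpeb2*, which binds mRNA, and *Plscr1* had differences of 1.24 (FDR = 0.0307) and 0.53 (FDR = 0.022). *Angptl4*, an inhibitor of lipoprotein lipase, was among the smaller responses of clone A1, with a difference of -1.65 (FDR = 0.0497), from 0.608 ± 0.0941 to 2.63 ± 0.529 CPM in wild-type MEFs and from 7.15 ± 1.25 to 9.86 ± 1.601 CPM in clone A1. Within clone A1 *Angptl4* passed only with the block (FDR = 0.366 without and 0.00844 with it). The differences of *Cpeb2*, *Plscr1* and *Angptl4* were lost without 11, 6 and 10 of the 12 libraries (FDR up to 0.117, 0.0951 and 0.249), and that of *Cpeb2* was kept only without untreated wild-type replicate 3. The remaining 2 of the 14 genes, *Nod2* and *Rrad*, did not pass within clone A1, and their differences were lost without 11 and 10 of the 12 libraries.

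Between the clones A1 and A2 0 differences were called (0%), although 489 genes had an unadjusted p under 0.05, DESeq2 called 10 and the fit with the block called 262. Without untreated replicate 1, IL-1β replicate 1 or IL-1β replicate 2 of clone A2, 6, 9 and 1 differences were called. *Lif* had a difference between the clones of -0.32 with a 95% interval of -0.76 to 0.12, and *Il6* one of -1.41 with an interval of -2.62 to -0.20 (FDR = 1 and 1, intervals not adjusted for the number of genes). Between the 2 clones *Ccl5* had a log2 fold change of 2.44 in A1 and 5.59 in A2 (difference -3.15, 95% interval -4.66 to -1.63, FDR = 0.549, and 0.000111 with the block), and *Icam1* had 2.16 and 0.37 (difference 1.79, 95% interval 0.34 to 3.23, FDR = 1, and 0.147 with the block). The difference in *Ccl5* thus passed the test over all genes only with the block, and that in *Icam1* passed in neither fit.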

How the data were processed

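RNA-seq counts of 24 mouse libraries, 8 groups of 3, were used. Per the study's methods, reads were trimmed with Trim Galore (0.6.0, from the submitters' processing notes) and aligned with STAR 2.7.8a to GRCm38.p6 with GENCODE vM24. The authors deposited STAR gene counts per library, and the second strand column was used, because 95.7 to 96.0% of stranded counts of clone A1 fell there. The labels name a SMARTER mRNA kit and the methods a KAPA kit with removal of ribosomal RNA, and which was used was not settled. Rows that name no gene were 27.2 to 33.1% of read pairs in clone A1 and were left out. Symbols came from GENCODE M21 of the same build (55144 of 55471 genes), and promoters from RefSeq.

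Genes were filtered with filterByExpr (minimum count 10, total 15), scaled by TMM and tested in 1 fit of all 24 libraries with the quasi-likelihood test of edgeR 4.0.16 (older form, R 4.3.3, limma 3.58.1), after the scripts had been tested on simulated data. FDR is the Benjamini-Hochberg adjusted p over all tested genes, and called means under 0.05. CPM were computed on the TMM-scaled library size, and in clone A1 1 count was about 0.02 CPM. Intervals of ratios cover counting error only. An exact permutation test of 3 against 3 libraries cannot go below p = 0.1. Pairing was checked, and same-numbered libraries of clone A1 deviated from their group means together (r between 0.425 and 0.633, other pairs -0.562 to -0.0124), and every same-numbered pair of the other genotypes correlated at 0.341 or above, so the replicate numbers from the labels were taken to pair the libraries in the block. What a shared number stands for is not stated.

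Named were the 15 genes with the largest increases, the 10 with the largest decreases and the 10 with the smallest p (called, no overlap, mean CPM of at least 1), up to 5 per difference and direction, and called list members. The members and lists were chosen with earlier results of these data known. Alternatives were unstranded counts, other scalings, filters, quasi-likelihood method or libraries, DESeq2 1.42.0, the block, and each library left out.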

Additional observations from a re-analysis of the deposited data

Results flagged for a closer look

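The following responses of clone A1 to IL-1β differed from those of another genotype by an interaction term in edgeR, and all of these differences use the same 6 libraries of clone A1. Against *Lkb1*-/- MEFs the log2 fold change of clone A1 was the smaller for *Lif* (difference -1.44, FDR = 0.0148), *Rab11fip1* (-0.872, FDR = 0.0306), *Ccl2* (-0.856, FDR = 0.0306), *Tbx3* (-0.682, FDR = 0.0306) and *Slc39a14* (-0.674, FDR = 0.0256).

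Against wild-type MEFs it was the smaller for *Chil1* (-2.75, FDR = 0.00484), *Rab15* (-2.64, FDR = 0.000888), *C3* (-2.58, FDR = 0.00169), *Slc16a9* (-2.53, FDR = 9.39e-05), *Angptl4* (-1.65, FDR = 0.0497) and *Ccl2* (-1.12, FDR = 0.000888). It was the larger for *Afap1l2* (1.79, FDR = 0.000264), *Cpeb2* (1.24, FDR = 0.0307), *Gpr137b* (0.838, FDR = 0.00197), *Tbx3* (0.811, FDR = 0.00197), *Dpy19l1* (0.698, FDR = 0.00169) and *Plscr1* (0.529, FDR = 0.022). *Tbx3* thus differed in opposite directions from the 2 genotypes, with a log2 fold change of -0.18 in wild-type MEFs, 0.63 in clone A1 and 1.31 in *Lkb1*-/- MEFs. Clone A2 stood at 1.27 (FDR = 1.61e-09), and the difference of clone A1 from it was -0.64 (FDR = 0.3, and 8.29e-05 with the replicate block).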

How the results depend on the processing

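The replicate block moved the counts most. Against 348 calls (210 higher, 138 lower), the additive replicate block gave 1684 (644 and 1040), the replicate block within each genotype 2860 (992 and 1868) and the replicate block in only the 6 libraries 3383 (1353 and 2030). No filter gave 908 (437 and 471), and DESeq2 gave 573, of which 260 were lower. Upper quartile scaling gave 222 lower, and only the 6 libraries without the block 216. Without both replicate 1 libraries, an alternative chosen after seeing the data, 156 were called (121 and 35). Leaving out each library in turn gave 197 to 233 calls, of which 142 to 170 were higher and 55 to 91 lower.

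The 5 differences from *Lkb1*-/- MEFs became 3 with unstranded counts or upper quartile scaling, 141 with no filter, 12 with DESeq2, 36 and 267 with the additive block and the block within each genotype, 0 without both replicate 1 libraries, and 0 to 4 without single libraries. The 14 from wild-type MEFs became 257, 47, 110, 559 and 9 (no filter, DESeq2, both blocks, without both replicate 1 libraries), and 9 to 13 without single libraries. The 0 between the clones became 147, 10, 30 and 262 (no filter, DESeq2, both blocks), and 0 to 9. The causes were not tested.

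The log2 fold changes of *Rps13-ps1*, *Gm4294* and *Rpl10-ps6* reversed to 0.172, 0.337 and 0.265 without untreated replicate 1 (lowest values without 1 library -5.04, -5 and -3.68), and to 0.442, 0.172 and 0.184 without both replicate 1 libraries. Of 2067 recomputed log2 fold changes of 117 genes, 1815 kept their direction and call, 164 lost the call and 82 gained it. Of the 87 called genes named, 57 were called without any single library and 32 lost the call without both replicate 1 libraries. The block ended no call of the 348, and where it made one it is given in the report or in these counts. With 3 libraries a group, small changes of scarce genes were not detectable: 3 counts are about 0.07 CPM.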
